A study of Gallus gallus with 16 samples.

Results

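Z-linked genes of the chick (Gallus gallus) were followed across 16 RNA-seq libraries of embryonic neural crest, by their position along the Z chromosome and against the W-linked reads of the same library. A gene was included when its first listed exon lay on Z and it reached at least 1 CPM (its count scaled by the total of the library) in at least 3 libraries. This gave 643 genes, 52.1% of the 1233 features listed on Z and 4.86% of the 13223 features that passed the same CPM rule anywhere in the genome, from a table of 24881 features. The 3 included genes closest to the limit had a third-highest value of 1.06, 1.10 and 1.10 CPM, and the 3 features just outside it 0.994, 0.992 and 0.988 CPM. Of the 590 Z features that were not included, 276 had no count in any library, and the other 314 averaged at most 1.18 CPM each.

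All embryos were wild type, at Hamburger and Hamilton stage 18, and carried pCAG Cas9-2A-Citrine, a plasmid in which the broadly active CAG promoter drives the nuclease Cas9 together with the fluorescent protein Citrine. Citrine-positive cells of the vagal region, the part of the neural crest that supplies the enteric nervous system and parts of the heart, were dissociated and sorted. The sox3 group (2 libraries) also received pcU6:sox3_g1 and pcU6:sox3_g2, plasmids that express guide RNAs. The msx1 group (3 libraries) received pcU6:msx1, the sox10 group (3 libraries) pcU6:sox10_g1 and pcU6:sox10_g2, and the tfap2b group (3 libraries) pcU6:tfap2b_g1 and pcU6:tfap2b_g2. The double group (3 libraries) received both tfap2b guides and pU6:sox10_g1, and the control (2 libraries) received no guide plasmid. All 4 targeted genes encode transcription factors. Electroporation gives mosaic tissue, and no label states the sex of the embryos, how many were pooled, or whether replicates were separate embryos. P-values therefore cover only the variation among these libraries, part or all of which may be technical.

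In birds the male is the ZZ sex and the female the ZW sex, so female cells carry a single Z and are the only cells with a W. Dosage compensation of the avian Z is incomplete and varies from gene to gene, and many Z-linked genes are therefore expressed at a higher level in male than in female cells of the same tissue. Apart from reads placed on the wrong copy of a gene pair shared by Z and W, W-linked transcripts come from female cells, and the W reads of a pooled library thus carry information on its share of female RNA. Sex was not otherwise recorded here, and the share of female cells and the amount of W-linked RNA per female cell cannot be told apart in bulk RNA. In the same way, fewer cells of a type and less RNA per cell cannot be told apart for any Z-linked gene.

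Total counts were 5721022 to 24929531 per library. The sox10, tfap2b and double libraries were separated from the sox3, msx1 and control libraries by the first principal component of all genes that passed the CPM rule (52.6% of the variance). Replicates 1 and 2 of the sox3, msx1 and control groups were closer to each other (biological coefficient of variation 0.106, 0.141 and 0.122) than the median pair of replicates (0.346), though they differed by more than sampling noise. The table gives gene IDs without symbols, and 0 of them could be paired with a name, so the targeted genes, the neural crest identity of the cells and the roles of single Z-linked genes were not analysed here. All 5 comparisons share the 2 control libraries.

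The Z-linked genes were spread along most of the chromosome in the galGal5 coordinates of the deposited table, the first starting at 2869 and the last ending at 82003287. Gene density was 7.81 included genes per Mb. Neighbouring genes started a median of 51.3 kb apart, and at most 5320 kb apart, between 70 and 80 Mb. In exonic length (median 1873 bp on Z and 1972 bp on the autosomes) and number of exons (median 9 on both) they were close to the 12560 autosomal genes that passed the same rule. Their genomic span was wider, with a median of 20.7 kb on Z, against 12.6 kb on the autosomes, 17.1 kb on macrochromosomes (1 to 5) and 8.12 kb on microchromosomes (11 to 33). Of the 643 genes, 20 had a single exon, 49.0% lay on the plus strand and 100 overlapped another listed gene. Counting by strand is not stated in the sources used here, so the values of those 100 are uncertain.

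Averaged over the 16 libraries, the median CPM per kilobase of exon (RPKM, computed here) was 10.3 on Z (quartiles 2.80 and 36.6) and 9.55 on the autosomes (quartiles 2.52 and 32.6). ENSGALG00000015704 (Z, 66519578 to 66525077, 5 exons) had the highest mean level, 1420 RPKM, followed by ENSGALG00000000428 (44899734 to 44903752, 3 exons) at 1098 RPKM. ENSGALG00000015704 averaged 1012 CPM in the sox3, 563 in the msx1, 1584 in the sox10, 1379 in the tfap2b and 1158 in the double group, against 650 in the control. ENSGALG00000000428 averaged 437 CPM in the sox3, 274 in the msx1, 1071 in the sox10, 926 in the tfap2b and 695 in the double group, against 351 in the control. In both, the lowest library belonged to the msx1 group and the highest to the sox10 group. The steadiest genes varied little. ENSGALG00000014740 (19489356 to 19563300, 35 exons) ranged from 139 to 198 CPM over the 16 libraries and ENSGALG00000023066 (70593750 to 70601481, 8 exons) from 274 to 430 CPM, with SDs of 0.16 and 0.18 on the log2 CPM scale. Both overlap another gene. The median SD of log2 CPM over the 16 libraries was 0.89 for Z-linked and 0.99 for autosomal genes.

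The share of all counts that fell on the Z-linked genes differed between groups. It was 4.57% and 4.60% in the sox3 libraries, 3.48%, 3.63% and 4.32% in the msx1 libraries and 5.12%, 5.37% and 5.35% in the sox10 libraries. The tfap2b libraries held 5.46%, 5.63% and 5.44% and the double libraries 4.99%, 5.18% and 5.24%, against 4.07% and 4.14% in the control libraries. All libraries of the sox3, sox10, tfap2b and double groups thus lay above both control libraries, while the msx1 libraries lay on both sides of them.

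W-linked reads, summed over the 141 features listed on W, ran largely the other way. They came to 171 and 162 CPM in the sox3 libraries. The 3 msx1 libraries held 842, 843 and 229 CPM, and the 3 sox10 libraries 210, 169 and 161 CPM. The tfap2b libraries held 154, 87.3 and 74.1 CPM and the double libraries 302, 246 and 212 CPM, against 364 and 382 CPM in the control libraries. Replicates 1 and 2 of the msx1 group were the only libraries above the control, and replicate 3 of that group was below it. The sums rest on 826 to 12975 counts per library. A single W row supplied 42.2% to 77.2% of the W counts of a library.

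To set Z against the autosomes within each library, the log2 CPM of every gene was centred on its mean over the 16 libraries, and the median over autosomal genes was subtracted from the median over Z-linked genes. This Z level was -0.083 and -0.11 in the sox3 libraries, -0.40, -0.36 and -0.19 in the msx1 libraries, 0.15, 0.26 and 0.13 in the sox10 libraries, 0.24, 0.30 and 0.27 in the tfap2b libraries, 0.16, 0.14 and 0.21 in the double libraries, and -0.22 and -0.24 in the control libraries. Every sox3, sox10, tfap2b and double library lay above both control libraries, and msx1 replicates 1 and 2 lay below them. An exact permutation test of 1 group against the control cannot go below p = 0.1 with 3 against 2 libraries, or 0.333 with 2 against 2, so no test is given for these levels. Against macrochromosome genes alone the distance to the control was smaller in the sox3, sox10, tfap2b and double groups and larger in the msx1 group, with means of 0.015 ± 0.027 in the sox3 (SD, n = 2), -0.21 ± 0.16 in the msx1, 0.11 ± 0.071 in the sox10, 0.15 ± 0.016 in the tfap2b and 0.086 ± 0.025 in the double group (SD, n = 3 each), against -0.077 ± 0.023 in the control (SD, n = 2).

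Per length, the median Z-linked gene stood at 1.06 and 1.03 times the median autosomal gene in the sox3 libraries, 0.876, 0.845 and 1.01 times in the msx1 libraries, 1.35, 1.44 and 1.26 times in the sox10 libraries, 1.35, 1.41 and 1.49 times in the tfap2b libraries, and 1.26, 1.33 and 1.38 times in the double libraries, against 0.962 and 0.9995 times in the control libraries. The higher ratios of the sox10, tfap2b and double libraries went with a lower autosomal median, which was 4.75 to 7.05 RPKM in those 9 libraries, against 11.6 and 12.2 RPKM in the control libraries. The Z-linked median itself was 5.96 to 9.38 RPKM there, and 11.2 and 12.2 RPKM in the control libraries. More genes were at 0 counts in the same libraries: 56 to 70 of the 643 Z-linked genes in the sox10, 16 to 31 in the tfap2b and 20 to 30 in the double libraries, against 4 and 6 in the control libraries. At an equal depth of 5721022 counts, 555 to 580 Z-linked genes would have had a count in the sox10 libraries, against 630 in each control library. The same counts were not made for autosomal genes, so this difference in detected genes is not shown to be particular to Z. Its part in the Z level was not tested.

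**Figure D1:**
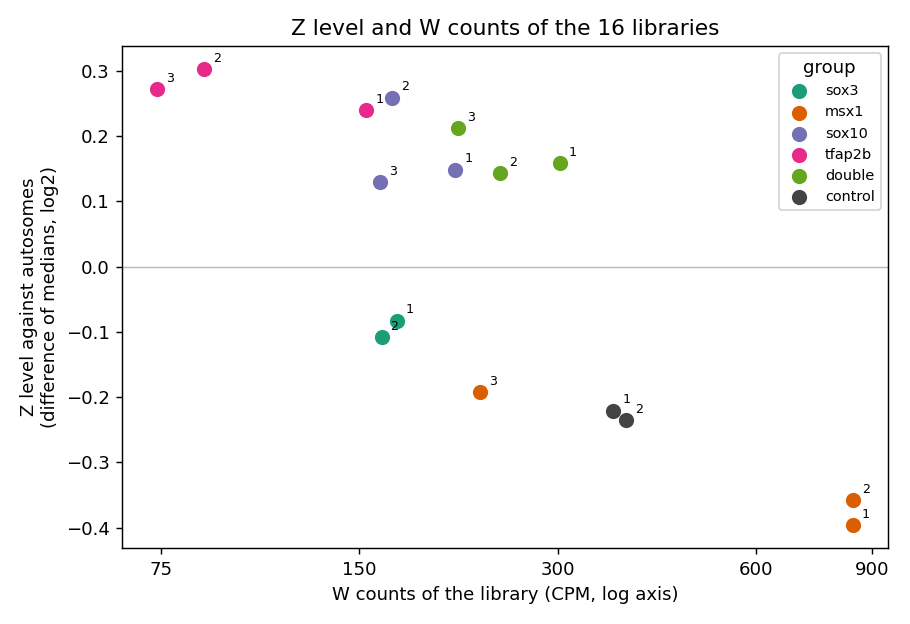
Z level of each library (median log2 level of Z-linked genes less that of autosomal genes, vertical axis) against its W counts (CPM, log axis), 1 point per library, coloured by group and numbered by replicate. The 2 msx1 libraries at 842 and 843 CPM of W have the lowest Z levels (-0.40 and -0.36), and the tfap2b libraries at 74.1 to 154 CPM the highest or near it (0.24 to 0.30).

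Within groups, libraries with more W-linked RNA tended to have a lower Z level. With both measures centred on the group mean, Pearson's r was -0.79 (exact permutation of the libraries within groups, two-sided p = 0.0392, 5184 arrangements) and Spearman's rho -0.69 (p = 0.0280, exact permutation) over 16 libraries. The Benjamini-Hochberg adjusted values over the 3 relations computed were 0.0392 for r and 0.0420 for rho. The relation rests on the msx1 group. Without msx1 replicates 1 and 2, the libraries farthest from the median W level, replicate 3 has no other library of its group to be centred on, and r over the remaining groups was -0.41 (exact permutation p = 0.223, n = 13). Without msx1 replicate 3 alone it was -0.40 (exact permutation p = 0.224). With the close replicate pairs averaged it was -0.77 (exact permutation p = 0.109, n = 11), and against macrochromosome genes alone -0.79 (exact permutation p = 0.120). Against microchromosome genes alone r was -0.32, also with an exact permutation p above 0.05. The msx1 levels were then -0.51, -0.45 and -0.46 in replicates 1, 2 and 3, so replicate 3 lay between the others. Leaving out any 1 of 8 libraries (msx1 replicate 1, 2 or 3, sox10 replicate 1, tfap2b replicate 1, 2 or 3, or double replicate 3) also took the p past 0.05, with r between -0.83 and -0.40 and an exact permutation p of up to 0.224.

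Because the libraries fall into 2 clusters, no r pooled over all of them is given. Among the 9 sox10, tfap2b and double libraries r was -0.76 (exact permutation p = 0.0147, adjusted 0.0221) and rho -0.62 (exact permutation p = 0.0857, adjusted 0.0857). Without tfap2b replicates 2 and 3, the libraries farthest from the median there, r was -0.46 (exact permutation p = 0.295, n = 7), and against macrochromosome genes alone it was -0.57 over the 9 (exact permutation p = 0.114). Among the 7 sox3, msx1 and control libraries r was -0.98 (exact permutation p = 0.00119, adjusted 0.00357) and rho -0.93 (exact permutation p = 0.00675, adjusted 0.0202). That figure includes the 3 close pairs, which differ far less than other replicate pairs, and without msx1 replicates 1 and 2 r was -0.94 (exact permutation p = 0.0583, n = 5). Group and W level are mixed in both of these relations. Their permutations moved W levels freely between groups, and among the 7 libraries also between members of close pairs. The p-values treat the libraries as separate and allow for neither.

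The widest contrast in W within 1 group, msx1 replicates 1 and 2 against replicate 3, was followed gene by gene. Of the 643 Z-linked genes, 461 (71.7%) were lower in replicates 1 and 2 than in replicate 3, with a median log2 ratio of -0.33. The same held for 57.6% of autosomal genes, with a median of -0.097. Genes on macrochromosomes were evenly split (50.7% lower, median -0.0077), while genes on microchromosomes lay closer to Z (67.5% lower, median -0.24). The 3 libraries also differed in the chromosome 14 cluster described with the sox10 group, at 6.99 and 7.66 CPM in replicates 1 and 2 and 712 CPM in replicate 3, and the part of that difference was not tested. These are values from 3 libraries, 2 of them close, and no test was made.

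For each gene a slope on the W level was then fitted within groups across the 16 libraries, as the log2 change in level per doubling of W CPM, with W rows left out (14058 genes). The median slope was -0.12 for Z-linked genes (quartiles -0.30 and 0.087), with 421 of 643 (65.5%) below 0. It was -0.021 for autosomal genes, of which 53.5% were below 0, 0.0059 on macrochromosomes and -0.074 on microchromosomes. In edgeR's quasi-likelihood fit, 0 genes on Z or elsewhere had a Benjamini-Hochberg adjusted p under 0.05 (background 0%). At an unadjusted p under 0.05, 56 Z-linked genes (8.71%) had a lower and 7 (1.09%) a higher level with more W, where the background over all genes was 1.46% lower and 0.74% higher (2.2% in either direction). The 63 genes in either direction were 30 without msx1 replicate 2, 30 without msx1 replicate 3, 29 with the replicate block and 16 with close pairs summed. The share of all genes at that p was not computed for these other fits, so the fall is not shown to be particular to Z. Other tools called 4 Z-linked genes lower (limma-voom with quality weights, 0.676% of all genes in either direction) and 1 higher (DESeq2, 0.0903% of all genes).

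The smallest p values among Z-linked genes of at least 5 CPM belonged to genes far apart on the chromosome, and none passed after adjustment (edgeR's quasi-likelihood test, adjusted p = 0.9999 for all 4). ENSGALG00000005395 (81615349 to 81627915, 12 exons) had a slope of -0.41 (SE 0.11, unadjusted p = 0.00186 in edgeR's test). It held 136 and 141 CPM in the sox3 libraries, 79.9, 83.1 and 155 CPM in the msx1 libraries, 211, 281 and 216 CPM in the sox10 libraries, 278, 267 and 250 CPM in the tfap2b libraries and 228, 250 and 269 CPM in the double libraries, against 159 and 143 CPM in the control libraries. Its lowest libraries were thus the 2 with the most W, and without msx1 replicate 3 its slope was -0.17. ENSGALG00000002605 (9297783 to 9298741, 3 exons) had a slope of -0.69 (SE 0.18, unadjusted p = 0.00209 in edgeR's test), with 26.0 and 28.2 CPM in msx1 replicates 1 and 2 and 76.7 CPM in replicate 3. Without that replicate its slope was -0.36. It was 0.045 when groups were not fitted, since its level also differed between groups, with 12.1 to 21.2 CPM in the double libraries, against 130 and 122 CPM in the control libraries. In the other direction, ENSGALG00000014978 (23461599 to 23577675, 38 exons, overlapping another gene) had a slope of 0.53 (SE 0.19) and ENSGALG00000014846 (13176300 to 13262596, 17 exons) 0.42 (SE 0.15), with unadjusted p of 0.0137 and 0.0146 in edgeR's test.

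**Figure D2:**
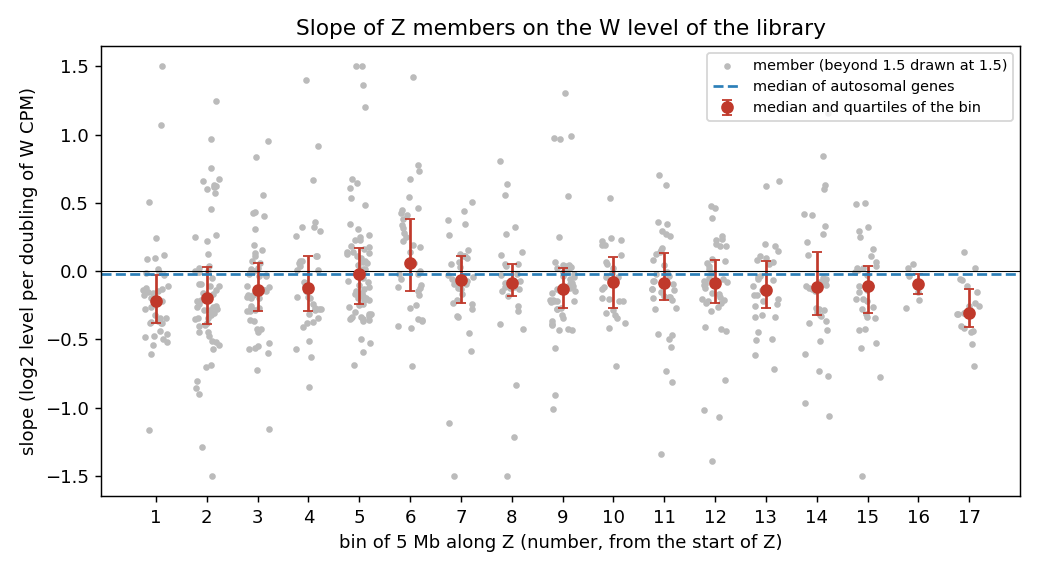
Slope of each Z-linked gene on the W level of the library (log2 level per doubling of W CPM, vertical axis) by bin of 5 Mb along Z (horizontal axis). Grey points are genes, red points and bars the median and quartiles of a bin, and the dashed line the autosomal median of -0.021. In 16 of 17 bins the median lies below that line, down to -0.30 in the last bin, and in bin 6 it is 0.062.

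Along the chromosome, the lower levels with more W were not limited to 1 stretch. All stretches share the same 16 libraries, so they are not separate support. Microchromosome genes also had a median slope (-0.074) below the autosomal median (-0.021), and the share of autosomal bins below it was not computed. In bins of 5 Mb, taken by the start of each gene, the median slope was below the autosomal median in 16 of 17 bins. In bins of 10 Mb this held for 8 of 9. With Z-linked genes under a mean of 10 CPM left out, it held for 17 of 17 bins of 5 Mb. The autosomal median was not restricted in the same way, and the highest of those bins was at -0.0224, against -0.0206. With all Z-linked genes in bins of 5 Mb, the exception was the bin from 25 to 30 Mb, with a median of 0.062 over 37 genes, of which 16 had a slope below 0. Genes in the 25 to 26 Mb and 26 to 27 Mb windows there had medians of 0.19 (11 genes) and 0.25 (6 genes). In bins of 10 Mb the exception was 20 to 30 Mb, at -0.0131. Among bins of 5 Mb, 20 to 25 Mb counted as below by a small margin, at -0.0228 over 68 genes, against -0.0206. The lowest median, -0.30, was that of the 19 genes from 80 to 85 Mb, 17 of which were below 0, and the next lowest, -0.22, that of the 41 genes in the first bin. The last bin and the bin from 75 to 80 Mb (8 genes) hold under 20 genes each.

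In the sox3 group few Z-linked genes differed from the control. By edgeR's quasi-likelihood test across all 14081 genes, with Benjamini-Hochberg adjusted p under 0.05 as the threshold, 7 of 643 were higher (1.09%; background 0.575%) and 0 lower (background 0.071%, and 0.646% in either direction). In the same fit 58 had an unadjusted p under 0.05 in either direction, for which the share over all genes was not computed. DESeq2 called 17 higher and 2 lower, with 2.66% of all genes called in either direction. The median log2 fold change was 0.11 on Z and -0.085 on the autosomes. ENSGALG00000014673 (57406344 to 57409119, 4 exons) was at 366 and 328 CPM in the sox3 libraries, against 1.45 and 0.361 CPM in the control libraries (log2 fold change 8.60, SE 1.17, adjusted p = 0.00219). ENSGALG00000015544 (65124989 to 65133725, 9 exons) was at 99.8 and 103 CPM in the sox3 libraries, against 0.413 and 0 CPM in the control libraries (log2 fold change 8.93, SE 1.85, adjusted p = 0.0373). The sox3 and control groups each consist of 1 close pair of libraries. The count of 7 was lower without any 1 of the 4 libraries and with close pairs summed. In those fits the share of all genes called was lower too. The count was 226 with the 4 libraries fitted alone, where 32.3% of all genes were called. With the W level as a covariate the count was 1 (0.213% of all genes called) and the Z median -0.042, against an autosomal median of -0.11. ENSGALG00000015544 lost its call without any 1 of the 4 libraries (adjusted p 0.123 to 0.527) and ENSGALG00000014673 without either control library (0.0563 and 0.126). With close pairs summed neither passed (adjusted p 1 and 0.260), and ENSGALG00000015544 also missed the threshold without a filter (0.136) and with the W level as a covariate (0.156).

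In the msx1 group, 6 Z-linked genes were higher (background 1.07%) and 7 lower (background 1.76%) by the same test, 0.933% and 1.09% of the 643 (background in either direction 2.83%). The median log2 fold change was -0.17 on Z, against -0.051 on the autosomes. ENSGALG00000003792 (12272092 to 12333739, 20 exons) was at 30.6, 59.5 and 8.46 CPM in the msx1 libraries, against 2.12 and 2.48 CPM in the control libraries (log2 fold change 3.72, SE 0.75, adjusted p = 0.0133). ENSGALG00000015433 (54725868 to 54817218, 50 exons; uncertain, as it overlaps another gene) was at 69.7, 83.1 and 46.3 CPM in the msx1 libraries, against 5.06 and 8.17 CPM in the control libraries (log2 fold change 3.23, adjusted p = 0.0133). Both were above the control in all 3 libraries, by the widest margin in replicate 2.

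Among the genes that were lower, ENSGALG00000015053 (28030127 to 28068146, 25 exons) was at 24.1, 33.7 and 35.1 CPM in the msx1 libraries, against 118 and 132 CPM in the control libraries (log2 fold change -2.11, SE 0.27, adjusted p = 0.000704). ENSGALG00000015729 (66811339 to 66876495, 4 exons) was at 39.3, 44.8 and 42.1 CPM in the msx1 libraries, against 205 and 207 CPM in the control libraries (log2 fold change -2.39, SE 0.49, adjusted p = 0.0138). In both, replicate 3, which held less W than replicates 1 and 2, lay close to replicate 2 and below both control libraries. Both genes were below both control libraries in every other targeted library too. ENSGALG00000015053 was at 38.9 to 71.0 CPM in the sox3, sox10, tfap2b and double libraries. ENSGALG00000015729 was at 63.5 and 61.6 CPM in the sox3 and 8.15 to 15.3 CPM in the sox10 libraries. It was at 23.5 to 159 CPM in the tfap2b and 18.5 to 33.1 CPM in the double libraries. The count of 13 was 5 without msx1 replicate 1 or 2 (0.895% and 1.18% of all genes called) and 21 without replicate 3 (2.91%). It was 7 with the W level as a covariate (1.45%). Without either control library and with close pairs summed it was lower, and so was the share of all genes called. ENSGALG00000015053 kept its call without any single library, while the other 3 lost theirs without either control library (adjusted p 0.106 to 0.259) and without msx1 replicate 1 or 2 in at least 1 case each (0.0500 to 0.0792). With close pairs summed none of the 4 passed (0.211 to 0.728), and ENSGALG00000003792 had an adjusted p of 0.0568 with the W covariate.

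The sox10 group differed from the control in 293 Z-linked genes (background 46.4% of genes), 164 of them higher (25.5%; background 19.8%) and 129 lower (20.1%; background 26.6%). The median log2 fold change was 0.082 on Z (quartiles -1.30 and 1.42), against -0.33 on the autosomes, -0.075 on macrochromosomes and -0.65 on microchromosomes. ENSGALG00000014673 was again among the genes that were higher, at 218, 273 and 107 CPM in the sox10 libraries, with the control libraries at 1.45 and 0.361 CPM (log2 fold change 8.29, SE 1.15, adjusted p = 3.23e-05). ENSGALG00000015544 was at 130, 32.0 and 15.3 CPM in the sox10 libraries, against 0.413 and 0 CPM in the control libraries (log2 fold change 8.66, SE 1.81, adjusted p = 0.00106). A cluster of 4 features on chromosome 14 was also far above the control in the sox3 and sox10 groups. It held 13475 and 8510 CPM in the sox3, 6.99, 7.66 and 712 CPM in the msx1, 8102 to 14178 CPM in the sox10, 2089 to 4592 CPM in the tfap2b and 45.8 to 2938 CPM in the double libraries, against 1.76 and 2.30 CPM in the control libraries. What part the cells that carry those transcripts have in these 2 genes was not tested.

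Other Z-linked genes were not seen in the sox10 group at all. ENSGALG00000003295 (10174899 to 10197420, 5 exons) had 0 counts in all 3 sox10 libraries, against 12.9 and 16.1 CPM in the control libraries, at least 143-fold lower (adjusted p = 7.93e-05). ENSGALG00000032030 (11920915 to 11948644, 5 exons) also had 0 counts in the sox10 libraries, against 5.84 and 7.41 CPM in the control libraries, at least 65.2-fold lower (adjusted p = 0.000609). The bounds take 3 counts in the whole group as the limit that 0 counts allow, and cover counting error only. These 2 genes were below both control libraries in every library of the other targeted groups too. ENSGALG00000003295 was at 4.89 to 10.3 CPM in the sox3 and msx1 and 0.787 to 2.01 CPM in the double libraries. ENSGALG00000032030 was at 1.65 to 2.69 CPM in the sox3 and msx1 libraries. The count of 293 was 176 with close pairs summed. The balance of directions moved when a trend on exonic length was removed from each library, a step that also takes out the level of the library and so rescales it. There 283 Z-linked genes were higher and 55 lower, and the median rose on Z (to 1.11) and on the autosomes (to 0.73) alike. Over all genes 47.3% were called in either direction there. Rescaling and gene length cannot be told apart in that fit. The sign of the Z median also turned, to -0.041 without sox10 replicate 1, -0.034 without replicate 2, -0.023 with the W level as a covariate and -0.19 by limma-voom, each time above the autosomal median of the same fit.

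In the tfap2b group, 160 Z-linked genes were higher (24.9%; background 17.7%) and 84 lower (13.1%; background 20.9%). The median log2 fold change was 0.30 on Z, against -0.20 on the autosomes, 0.071 on macrochromosomes and -0.58 on microchromosomes. ENSGALG00000014673 was at 81.8, 65.6 and 14.7 CPM in the tfap2b libraries, between the sox10 and the control group (log2 fold change against the control 6.26, SE 1.06, adjusted p = 0.000259). ENSGALG00000015544 was at 27.1, 17.9 and 5.29 CPM in the tfap2b libraries (log2 fold change 6.67, SE 1.70, adjusted p = 0.00538, and 0.0654 without control replicate 2). ENSGALG00000003295 was at 0.590, 0.0760 and 0 CPM (11 counts in all, log2 fold change -5.57, SE 0.99, adjusted p = 0.000561) and ENSGALG00000032030 at 0.0590, 0.0760 and 0.269 CPM (5 counts in all, log2 fold change -5.24, SE 1.22, adjusted p = 0.00376) in the tfap2b libraries.

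These libraries held the least W, 74.1 to 154 CPM. With the W level as a covariate the number of Z-linked genes called was 119 (86 higher, 33 lower) in place of 244, and the median was 0.12 on Z and -0.22 on the autosomes; over all genes the share called was 18.9% in place of 38.6%. The number on Z was also lower without control replicate 2 and with close pairs summed, fits that leave 1 control library. The share of all genes called was lower there too. ENSGALG00000015544 and ENSGALG00000032030 missed the threshold with the W covariate (log2 fold change 5.08 and -5.78, adjusted p 0.110 and 0.0522) and with close pairs summed (0.0585 and 0.0596). With the exonic length trend removed, which also rescales the libraries, 242 Z-linked genes were higher and 37 lower (40.0% of all genes in either direction). The medians were then 1.02 on Z and 0.49 on the autosomes.

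In the double group, 148 Z-linked genes were higher (23%; background 17.1%) and 81 lower (12.6%; background 20.2%, and 37.2% in either direction). The median log2 fold change was 0.18 on Z, against -0.12 on the autosomes, 0.13 on macrochromosomes and -0.48 on microchromosomes. ENSGALG00000003792, also higher in the msx1 group, was at 43.7, 60.2 and 52.5 CPM in the double libraries, against 2.12 and 2.48 CPM in the control libraries (log2 fold change 4.76, SE 0.79, adjusted p = 0.000322). It was above the control in every library of all 5 targeted groups, at 23.9 CPM or more in the sox3, 16.8 or more in the sox10 and 14.7 or more in the tfap2b libraries. ENSGALG00000023622 (9164721 to 9165903, 4 exons) was at 23.5, 23.7 and 54.2 CPM in the double libraries, against 0.362 and 0.948 CPM in the control libraries (log2 fold change 5.93, SE 1.41, adjusted p = 0.00380, 0.0542 without control replicate 1 and 0.0841 with close pairs summed). It was higher still in the sox3 libraries, at 79.5 and 89.0 CPM, and at 0 to 2.42 CPM in the sox10 libraries. In the msx1 libraries it was at 7.87 to 15.1 CPM and in the tfap2b libraries at 1.18, 24.15 and 2.06 CPM. DESeq2 gave it no adjusted p in the double group.

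ENSGALG00000027907 (58375165 to 58383467, 3 exons, uncertain as it overlaps another gene) was at 0.0913, 0.796 and 0.606 CPM in the double libraries, against 34.8 and 34.1 CPM in the control libraries (log2 fold change -5.81, SE 0.76, adjusted p = 5.21e-05). It was below both control libraries in every other targeted library too. It was at 0.549 to 1.46 CPM in the sox10, 0.897 to 2.12 in the tfap2b, 4.89 to 10.9 in the msx1 and 11.1 and 13.6 in the sox3 libraries. ENSGALG00000032030 had 3 counts in the double libraries, all in replicate 1, a ratio to the control of 0.0112 (95% exact binomial interval 0.00230 to 0.0332, for counting error only; adjusted p = 0.00251). The count of 229 was lower without control replicate 2 and with close pairs summed, fits that leave 1 control library. The share of all genes called was lower there too. With the exonic length trend removed, which also rescales the libraries, 224 Z-linked genes were higher and 39 lower (40.1% of all genes in either direction). The medians were then 0.77 on Z and 0.44 on the autosomes.

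**Figure D3:**
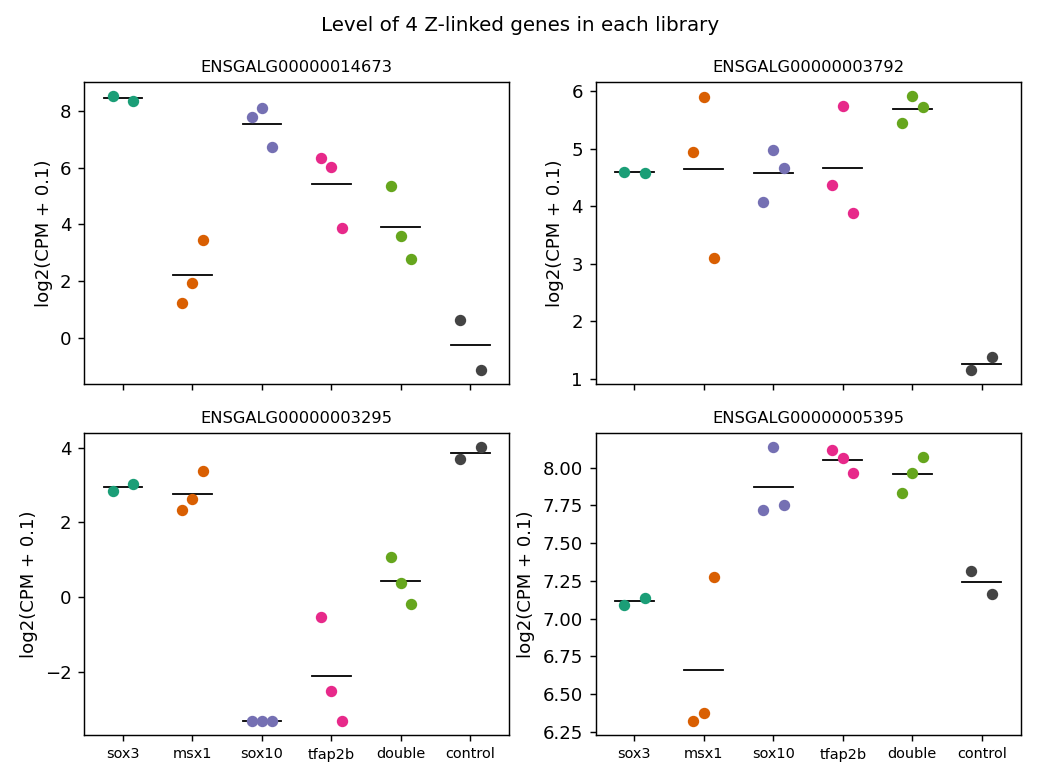
Level of 4 Z-linked genes in each library, as log2(CPM + 0.1), by group, with the control on the right; points are libraries and lines group means. ENSGALG00000014673 is above the control by the widest margin in the sox3 and sox10 groups, ENSGALG00000003792 is above it in all 5 targeted groups, ENSGALG00000003295 has 0 counts in the sox10 libraries, and ENSGALG00000005395 is lowest in msx1 replicates 1 and 2.

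**Figure D4:**
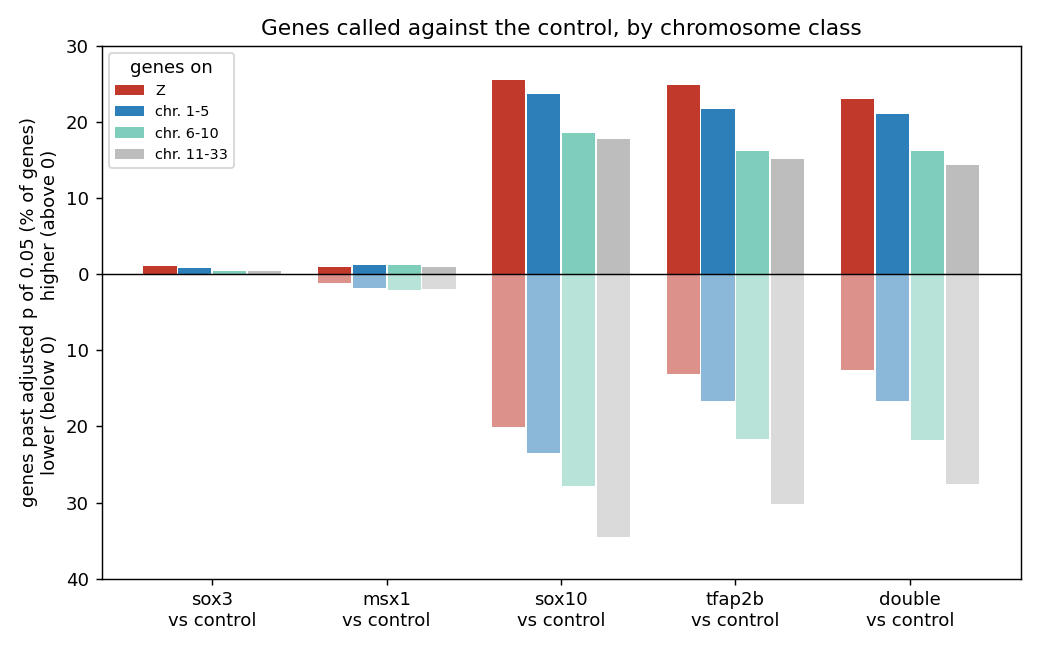
Share of genes called against the control (adjusted p under 0.05, % of genes) on Z, macrochromosomes (1 to 5), intermediate chromosomes (6 to 10) and microchromosomes (11 to 33), for the 5 comparisons; bars above 0 are genes higher, bars below 0 genes lower in the targeted group. Of Z-linked genes 25.5% were higher in the sox10, 24.9% in the tfap2b and 23% in the double group, where microchromosome genes were at 17.8%, 15.1% and 14.3%.

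Macrochromosome genes were the closest to Z in these counts. In the sox10 group 23.7% of them were higher and 23.5% lower, with 21.7% and 16.6% in the tfap2b group, and 21% and 16.7% in the double group. The difference between Z and these classes was not tested.

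By position, the genes from 5 to 10 Mb had the lowest medians of the 17 bins in the sox10, tfap2b and double groups. Over these 64 genes, the log2 fold change had a median of -1.39 in the sox10, -0.93 in the tfap2b and -0.47 in the double group. In the sox10 group 9 were higher and 24 lower (background 19.8% and 26.6% of all genes), with 8 and 19 for tfap2b (background 17.7% and 20.9%) and 9 and 16 for double targeting (background 17.1% and 20.2%). The bin was picked as the lowest, so these values are a description. Within it, the sox10 median was -1.63 over the 32 genes from 9 to 10 Mb, with 3 higher and 13 lower. It was -2.70 over the 9 genes from 8 to 9 Mb (0 higher, 5 lower) and -0.64 over the 19 genes from 7 to 8 Mb (5 higher, 6 lower), windows of under 20 genes each. These genes were short (median span 10.3 kb for the bin) and of low level (median 6.29 RPKM). The first bin had negative medians as well, at -0.69, -0.32 and -0.20, and 10 genes higher and 10 lower in the sox10 group. So did the 32 genes from 30 to 35 Mb, at -0.47 in the sox10, -0.14 in the tfap2b and -0.32 in the double group. In the sox10 group alone, medians were also below 0 from 50 to 55 Mb (-0.019), 65 to 70 Mb (-0.13) and 75 to 80 Mb (-0.50, 8 genes). Autosomal medians were -0.33, -0.20 and -0.12 in the 3 groups. The highest medians were those of the 68 genes from 20 to 25 Mb in the sox10 (0.66) and tfap2b (0.80) groups, where the double group was at 0.37. In that bin 20 genes were higher and 8 lower in the sox10 group, 21 and 4 in the tfap2b group, and 22 and 4 in the double group. The 32 genes from 60 to 65 Mb came next in the sox10 and tfap2b groups and first in the double group, with a median of 0.60 in the sox10, 0.78 in the tfap2b and 0.82 in the double group. In the sox10 group 10 of these genes were higher and 1 lower, with 12 and 1 in the tfap2b group, and 10 and 1 in the double group.

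Read by library, the bin from 60 to 65 Mb was at -0.39 and -0.30 in the sox3, -0.96, -0.80 and -0.49 in the msx1, 0.73, 0.63 and 0.53 in the sox10, 0.38, 0.48 and 0.41 in the tfap2b and 0.25, 0.18 and 0.27 in the double libraries, against -0.57 and -0.51 in the control libraries (median log2 level against the autosomes). The bin from 5 to 10 Mb was at 0.41 and 0.31 in the sox3, 0.085, 0.049 and 0.46 in the msx1, -0.19, -0.31 and -0.61 in the sox10, 0.0039, -0.39 and -0.065 in the tfap2b and 0.070, -0.18 and 0.13 in the double libraries, against 0.30 and 0.55 in the control libraries. All tfap2b libraries lay above both control libraries in 15 of 17 bins and below them in 1. For the double group this was 14 and 1, for the sox10 group 9 and 1, for the sox3 group 9 and 1, and for the msx1 group 0 and 5. Among 199 autosomal bins of the same width with at least 8 genes, the share above the control was 50.8% for the tfap2b, 49.8% for the double, 40.2% for the sox10, 33.2% for the sox3 and 19.1% for the msx1 group, and the share below it 31.7%, 31.7%, 30.2%, 27.1% and 15.6%.

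**Figure D5:**
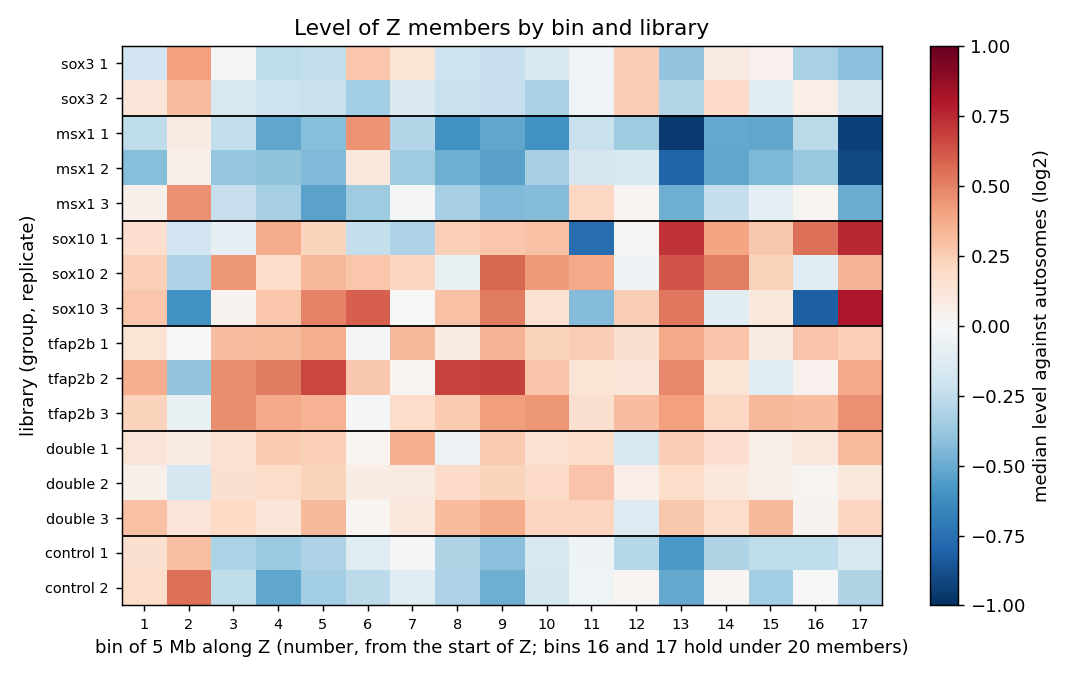
Median level of Z-linked genes against the autosomes (log2, colour) in each bin of 5 Mb along Z (columns, from the start of Z) and library (rows, targeted groups above, control at the bottom). Bin 2 (5 to 10 Mb) is lower in the sox10 libraries (-0.19 to -0.61) than in the control libraries (0.30 and 0.55), and bin 13 (60 to 65 Mb) is higher (0.53 to 0.73) than in the control libraries (-0.57 and -0.51).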

How the data were processed

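The deposited table holds whole-number read counts per gene for 16 libraries, not normalized. STAR 2.4.2a, Subread 1.4.5, featureCounts and DESeq2 on galGal5 are named in the submitters' processing notes. The SMART-Seq v4 kit for low input and paired reads of 40 bp were used, per the labels' protocols. Use of strand in the counting was not given in the sources used here. The reference gene table available (GRCg7b) matched 0 gene IDs, so no names, markers or sequences are given.

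From these counts, all 16 libraries were fitted together with edgeR 4.0.16 (R 4.3.3, limma 3.58.1): quasi-likelihood test, TMM scaling, default expression filter by group (14081 genes, all 643 Z-linked genes among them), group as the factor, robust estimation, Benjamini-Hochberg adjustment over all genes, threshold 0.05. The fit had a common biological coefficient of variation of 0.478 and 10 residual degrees of freedom. Standard errors are the log2 fold change over the square root of F. The slope fit added the log2 CPM of all W rows. Z levels used log2 CPM with a prior count of 2. Correlations were tested by exact permutation in Python 3.11.15. The scripts were tested on simulated data. The planned r pooled over all libraries is not given, since they form 2 clusters.

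Genes named per comparison and direction are the 2 with the largest fold change among those called that average at least 5 CPM in either group and whose libraries do not overlap. For the slope they are the 2 with the smallest p. The 2 with the highest RPKM and the 2 steadiest of at least 50 CPM are also named. The genes and the rules were chosen with earlier results of these data known. The chromosome 14 cluster and the bins given by library were chosen after their values were seen. Alternatives were other scalings, filters, tools, covariates, reference genes and left-out libraries.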

Additional observations from a re-analysis of the deposited data

How the results depend on the processing

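Other choices moved the counts of Z-linked genes called, most of all in the sox3 and msx1 groups. In these groups (7 and 13 called) the count was 19 and 39 by DESeq2 (2.66% and 8.51% of all genes in the same fits), 186 and 257 by limma-voom with quality weights (29.9% and 38.3%), 226 and 91 with only the libraries of the groups compared (32.3% and 16.5%), 1 and 7 with the W level as a covariate (0.213% and 1.45%), and 0 and 0 with close pairs summed (0.00685% and 0%, with 19 and 20 Z-linked genes at an unadjusted p under 0.05). In the other groups it was 378 (double) by limma-voom (60.4% of all genes), 119 (tfap2b) with the W covariate (18.9%), and 176, 123 and 98 (sox10, tfap2b, double) with close pairs summed (24.7%, 17.2% and 13.7%). Without single libraries it ranged from 0 to 1 (sox3), 1 to 21 (msx1), 202 to 299 (sox10), 153 to 233 (tfap2b) and 138 to 211 (double). Where a library of the targeted group was left out and both controls kept, the share of all genes called was 0.895% to 2.91% (msx1) and 46.6% to 47.9% (sox10). It was 32.8% to 36.7% (tfap2b) and 31% to 34.2% (double). The median log2 fold change on Z was 0.18 (sox10) and 0.33 (tfap2b) with RLE size factors and by DESeq2 (autosomal medians -0.23 and -0.15). It was 0.078 (sox3) without a filter (autosomal -0.11), and -0.19 (sox10) and 0.25 (tfap2b) by limma-voom (autosomal -0.57 and -0.29). With only the groups compared it was 0.18 (sox3), 0.19 (sox10) and 0.38 (tfap2b), with autosomal medians of -0.016, -0.25 and -0.13. With the W covariate it was -0.042 (sox3), -0.023 (sox10), 0.12 (tfap2b) and 0.12 (double), with autosomal medians of -0.11, -0.32, -0.22 and -0.13. With the exonic length trend removed, which also rescales the libraries, it was 0.16, 1.11, 1.02 and 0.77 (sox3, sox10, tfap2b, double). In the same order the autosomal medians of those fits were -0.032, 0.73, 0.49 and 0.44. With close pairs summed the Z median was 0.25 (tfap2b) and 0.14 (double), with autosomal medians of -0.24 and -0.16. In each of these fits the Z median lay above the autosomal median. Without single libraries the Z median ranged from 0.079 to 0.096 (sox3), -0.29 to -0.10 (msx1), -0.041 to 0.066 (sox10), 0.25 to 0.36 (tfap2b) and 0.20 to 0.26 (double). For the slope on W, 4 Z-linked genes passed by limma-voom, 1 by DESeq2 and 2 without a group term (0 to 0 without single libraries), and the slope of ENSGALG00000002605 turned to 0.045 without a group term. The slope fits by limma-voom, by DESeq2 and without a group term called 0.676%, 0.0903% and 0.0142% of all genes. The median slope on Z was below 0 in 28 of 28 alternatives. The highest, -0.048, was per 100 CPM of W, not per doubling (autosomal median -0.011 in that fit). Per doubling, the medians ran from -0.18 with the replicate block (autosomal -0.060) to -0.090 with close pairs summed (autosomal -0.0078). The group-centred r of Z and W level was -0.74 (exact permutation p = 0.0583) with a prior count of 5, -0.79 (0.120) against macrochromosomes, -0.32 (0.220) against microchromosomes, -0.41 (0.223) without the 2 farthest libraries, -0.77 (0.109) with close pairs averaged and -0.88 to -0.40 without single libraries. The causes of these shifts were not tested. Same-numbered libraries of different groups were little correlated: of 36 such pairs, 2 had deviations correlated over 0.1 (range of all pairs -0.089 to 0.14). Both were pairs of msx1 with tfap2b, in replicates 2 and 3. These values do not show whether same-numbered libraries were collected or processed together. With the replicate block, 29 Z-linked genes had a slope on W at an unadjusted p under 0.05 (63 without it). The share of all genes at an unadjusted p was not computed for this or the other alternatives. With the same block, 9, 15, 276, 232 and 223 Z-linked genes were called in the sox3, msx1, sox10, tfap2b and double groups. Of all genes, 0.561%, 2.57%, 44.1%, 36.2% and 34.6% were called in these comparisons. Groups of 2 or 3 libraries, 3 close pairs and the single W row behind much of the W counts limit what the data can show.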
